A study of Mus musculus with 12 samples.

Results

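Heme synthesis and degradation was followed through 9 genes: the enzymes Alas1, Alas2, Alad, Uros, Urod, Cpox, Ppox and Fech of the synthetic route, and Hmox1, which breaks heme down. They were taken by gene symbol from a list of pathway genes and are 9 of the 18820 genes measured. Each had 1 probe set (a group of array probes summarised to a single value) with a single symbol. All 9 read above the array's median on all 12 arrays. The list was selected on the Alas1 values themselves, since Alas1 differed between the genotypes in opposite directions in the 2 tissues. The Alas1 values are therefore a description without a test, whereas no value of the other 8 genes entered the choice.

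RNA was measured on 12 one-colour arrays, from the whole liver and from the primary hepatocytes of 6 male C57BL/6 mice aged 7 to 8 weeks, kept on standard chow. The 3 wild-type (WT) animals were Jnk1f/fJnk2+/+, with Jnk1 flanked by recombination sites and both genes active. The 3 JNKΔhepa animals lacked Jnk2 throughout the body (Jnk2-/-) and had lost Jnk1 where a Cre recombinase driven by the albumin promoter and the alpha-fetoprotein enhancer was active (Albf-Cre), that is in the hepatocyte lineage. Each mouse gave a liver and a hepatocyte sample, so that there were 4 groups of 3 arrays, and the WT animals were littermates. By this design, other liver cells of the JNKΔhepa mice lack Jnk2 but keep Jnk1, and no group had only one of the genes removed.

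Heme is an iron-containing ring that carries oxygen in globins and electrons in cytochromes. The liver is its main site of synthesis outside the red cell lineage, largely for the cytochrome P450 enzymes. Alas1 and Alas2 encode the housekeeping and the erythroid form of 5-aminolevulinate synthase, the mitochondrial enzyme that opens the pathway. In liver the Alas1 step limits the rate, is repressed by heme itself and is induced by fasting and by drugs. The next enzymes join aminolevulinate into porphobilinogen (Alad), close the ring (Uros) and trim and oxidise its side chains (Urod, Cpox, Ppox), and Fech inserts the iron. Hmox1 is the inducible heme oxygenase, which opens the ring to biliverdin, iron and carbon monoxide and is abundant in macrophages that clear red cells. JNK1 and JNK2, encoded by Mapk8 and Mapk9, are stress-activated kinases that phosphorylate the AP-1 subunit c-Jun.

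The promoters of the 2 synthase genes are shown because these genes hold the first step, of which Alas1 had the widest differences between groups. RefSeq start sites on build GRCm38.p6 were found for 7 of the 9 genes. Windows from 250 bases before to 50 bases after each start were searched on both strands for 5 letter patterns, which were chosen after the sequences had been seen. The Alas1 promoter on the minus strand of chr9:106247945-106248204 ends in a pattern of the type bound by nuclear respiratory factor 1 (GCGC, any 2 bases, GCGC), and a second match lies just downstream at chr9:106247911-106247930. A single match of this kind was found in Uros, on the minus strand of chr7:133709328-133709347. The Alas2 promoter on the plus strand of chrX:150547167-150547416 holds AGATAA, of the type bound by the GATA factors of the red cell lineage, read on the opposite strand as TTATCT. The matches are in capitals.
Alas1 promoter: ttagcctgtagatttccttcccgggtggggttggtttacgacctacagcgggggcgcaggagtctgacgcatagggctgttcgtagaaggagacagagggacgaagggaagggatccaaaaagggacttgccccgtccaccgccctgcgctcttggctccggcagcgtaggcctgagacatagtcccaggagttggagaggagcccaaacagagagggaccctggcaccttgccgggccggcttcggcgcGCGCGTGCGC
Alas1 downstream match: ccaagGCGCATGCGCggcgg
Uros match: acactGCGCCTGCGCgagtc
Alas2 promoter: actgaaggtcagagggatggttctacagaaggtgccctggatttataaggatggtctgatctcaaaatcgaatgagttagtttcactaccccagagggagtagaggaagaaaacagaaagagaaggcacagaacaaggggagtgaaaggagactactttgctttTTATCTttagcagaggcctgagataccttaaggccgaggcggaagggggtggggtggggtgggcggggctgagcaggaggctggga
Of all 32851 RefSeq promoter windows of this length, 6.23% held the nuclear respiratory factor 1 pattern and 11.2% held AGATAA. The E-box CACGTG, found in 7.15% of all windows, occurred in Alad, Urod and Uros, and AGATAA also in Cpox. The AP-1 pattern TGANTCA (7.81% of all windows) and the cyclic AMP response element TGACGTCA (1.79%) were in none of the windows of the 7 genes. The letters overlap no other searched pattern in the printed stretches, and a match is a description of the sequence, not of binding.

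The Mapk9 readings followed the genotype of the labels, and those of Mapk8 were lower in JNKΔhepa by less. Mapk9 read 8.59 to 8.69 in WT liver and 7.74 to 8.10 in WT hepatocytes against 2.33 to 3.02 and 2.29 to 2.62 in JNKΔhepa, where every reading lay below the array median. Mapk8, deleted only in part of the liver's cells, read 6.37 to 6.40 against 5.93 to 6.07 in liver and 5.51 to 5.66 against 4.95 to 5.01 in hepatocytes. No Mapk8 reading lay below the array median. Its difference passed in liver (limma adjusted p = 0.027) and in hepatocytes (0.00183). The liver call was lost in a fit of liver alone (0.0711) and, among others, without WT liver 1 (0.109). Whether the Mapk8 probe set lies in the deleted part of the gene is not stated in the sources used here. The 8 measured hepatocyte markers summed to between 15.1 and 15.4 (log2 of the summed linear values) on all 12 arrays, and 0 of them passed by genotype. The sources used here do not say how the hepatocytes were isolated. Within-group correlations of arrays lay between 0.987 and 0.993. Levels are log2 values as deposited, differences are JNKΔhepa minus WT with the standard error (SE) of the fit, and a gene passed at a limma adjusted p (Benjamini-Hochberg over all 18820 genes) under 0.05. With 3 mice in a group, only differences that are large for a gene's spread could pass.

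Alas1 was lower in the livers and higher in the hepatocytes of JNKΔhepa mice than in those of WT mice. In WT liver its 3 arrays read 10.21, 10.78 and 11.24, and in JNKΔhepa liver 10.28, 10.26 and 10.13. The JNKΔhepa livers lay close together, and the lowest WT liver read between them, so the groups overlapped. In WT hepatocytes Alas1 read 9.09, 9.33 and 9.15, against 10.08, 10.25 and 10.34 in JNKΔhepa hepatocytes. Every JNKΔhepa hepatocyte array stood above every WT hepatocyte array, as was so for 7.36% of all genes. The group means were 10.74 ± 0.52 (SD, n = 3) and 10.23 ± 0.082 in liver, and 9.19 ± 0.13 and 10.22 ± 0.14 in hepatocytes.

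**Figure D1:**
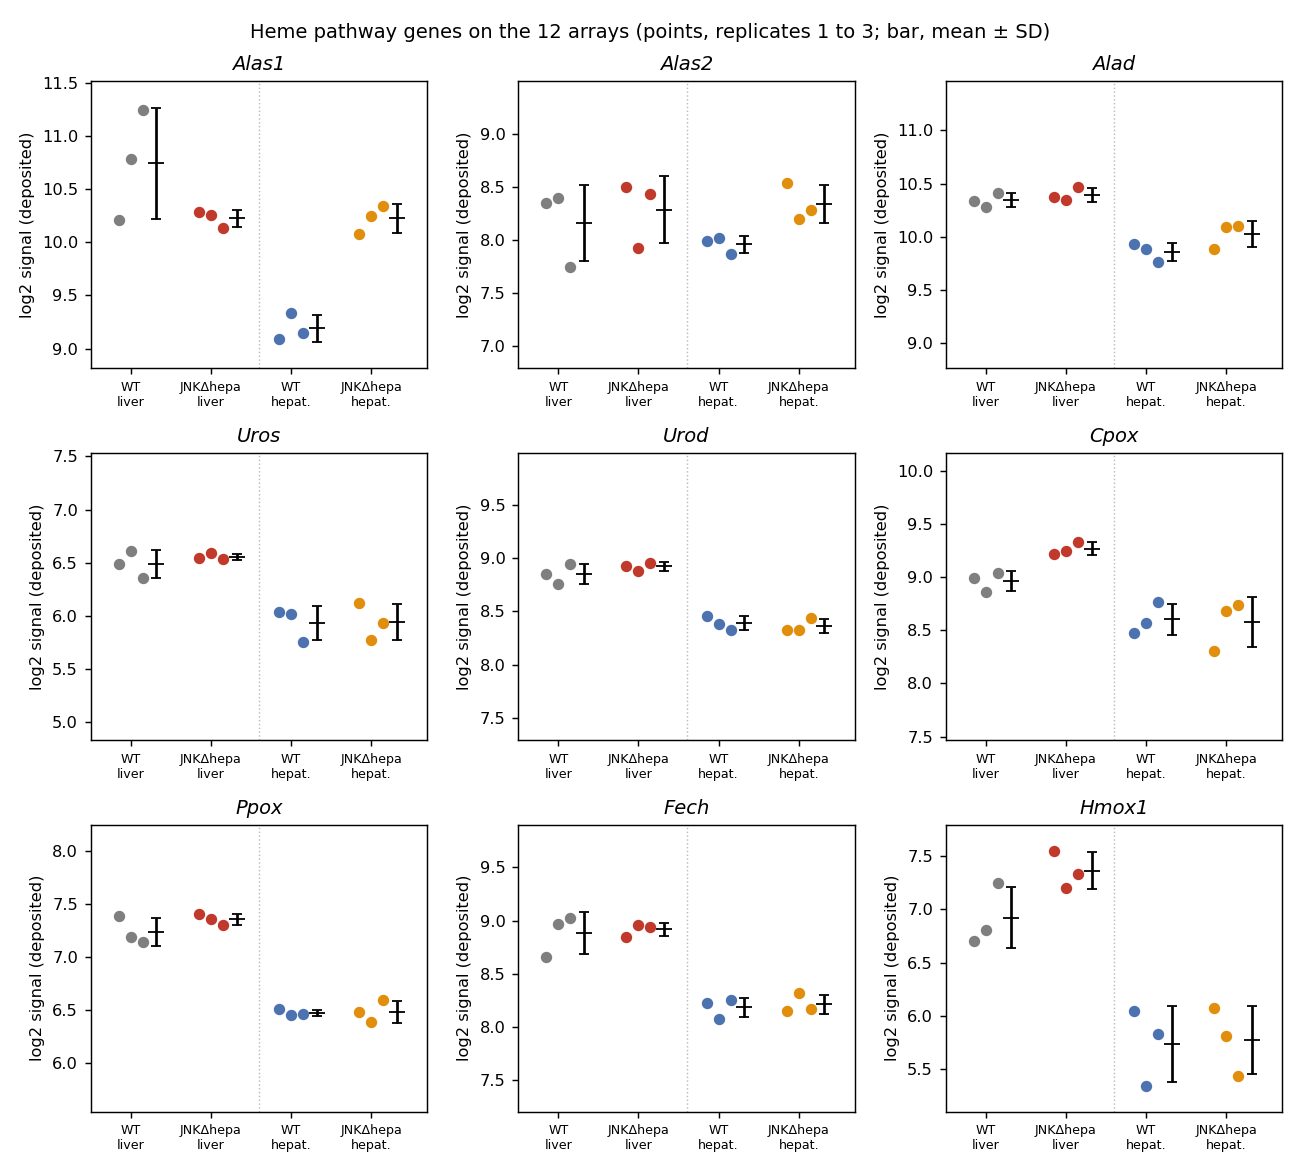
Deposited log2 levels of the 9 heme pathway genes, with a point for each array and the mean ± SD of each of the 4 groups beside it (n = 3 each). WT hepatocytes hold the lowest Alas1 readings, from 9.09 to 9.33, while WT liver spreads from 10.21 to 11.24; levels of different genes or tissues are not on a common scale.

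The Alas1 difference was -0.52 (SE 0.19) in liver, which is 1.43-fold lower. In hepatocytes it was 1.03 (SE 0.19), which is 2.05-fold higher. The hepatocyte difference exceeded the liver difference by 1.55 (SE 0.27). The SE was the same in both tissues because the fit shares 1 spread over the 4 groups. Alas1 had an SD of 0.52 in WT liver, where 98.9% of all genes had a smaller one, and of 0.082 to 0.14 in the other groups. The SE therefore does not show the wider spread of the WT livers. As a description of size, 24 of the 18820 genes had a higher hepatocyte difference, 221 a lower liver difference, and 11 a higher value of the gap between tissues. The liver value hung on single WT livers: it was -0.27 without WT liver 3 and -0.79 without WT liver 1. The hepatocyte value stayed between 0.97 and 1.11 when each of the 6 hepatocyte arrays was left out in turn.

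WT liver 3, with the highest Alas1 reading, also stood apart in clock genes that are on the list of Alas1 regulators. These genes are singled out here after their values were seen. Arntl, the core clock activator BMAL1, read 7.00, 7.21 and 4.97 in WT liver and 6.55 to 7.31 in JNKΔhepa liver. Npas2, its partner and a known regulator of Alas1, read 6.38, 6.55 and 3.71 in WT liver and 6.09 to 7.13 in JNKΔhepa liver. Nr1d2, a repressor of the same clock, was highest in that liver, at 8.64 against 7.48 to 8.11 on the other 5 liver arrays. Thus the liver with the most Alas1 had the least Arntl and Npas2 and the most Nr1d2. The hepatocytes of the same mouse read 7.14 for Arntl and 6.81 for Npas2, where the other 5 hepatocyte arrays read 7.13 to 7.46 and 6.84 to 7.46. The sources used here give no time of day, and the part of these differences in the Alas1 values was not tested.

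Alas2, the erythroid synthase, did not pass in either tissue. The 3 WT livers read 8.34, 8.39 and 7.75 and the 3 JNKΔhepa livers 8.50, 7.92 and 8.43, which overlap. The liver difference was 0.12 (SE 0.18, 95% interval -0.27 to 0.51, limma adjusted p = 0.861). WT hepatocytes read 7.99, 8.02 and 7.87 against 8.54, 8.19 and 8.28 in JNKΔhepa hepatocytes. All JNKΔhepa arrays were the higher ones, as was so for 7.36% of all genes. The hepatocyte difference was 0.38 (SE 0.18, 95% interval -0.01 to 0.77, limma adjusted p = 0.415). The hepatocyte difference exceeded the liver difference by 0.25 (95% interval -0.30 to 0.80, limma adjusted p = 0.884). Of 16 listed erythroid markers 7 had a probe set of their own, the globins not among them, and of these 5, 6, 6 and 7 were below the array median on all arrays of WT liver, JNKΔhepa liver, WT hepatocytes and JNKΔhepa hepatocytes. The log2 summed level of the 7 was 5.19 to 5.26 in WT and 5.14 to 5.17 in JNKΔhepa hepatocytes. With most of these markers below the array median and without the globins, such sums say little about red cells. The part of red cells in the Alas2 values was not tested.

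None of the 8 genes other than Alas1 passed by genotype in liver, where 0.925% of all genes did, or in hepatocytes, where 0.84% did. At an unadjusted p under 0.05 there were 2 in liver, Cpox and Hmox1, and 0 in hepatocytes, against 12.5% and 12.6% of all genes. In liver all 8 differences lay above 0, with a median of 0.093 against 0.016 over all genes. Over all genes, liver arrays that did not overlap were more often higher in JNKΔhepa (12.9%) than lower (7.57%). In hepatocytes 6 of the 8 differences lay above 0 and 2 below, with a median of 0.019 against -0.0018 over all genes. The difference between the tissues passed for 0 of the 8 (0 at an unadjusted p under 0.05, against 7.22% of all genes, limma adjusted p from 0.718 to 0.998), and for 0.0106% of all genes.

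Alad, which makes porphobilinogen, read from 10.28 to 10.47 over the 6 liver arrays and differed by 0.052 between the genotypes (SE 0.088, limma adjusted p = 0.884). WT hepatocytes read 9.93, 9.88 and 9.76 against 9.89, 10.10 and 10.10 in JNKΔhepa hepatocytes. A single JNKΔhepa array overlapped with WT, and the difference of 0.17 (SE 0.088, 95% interval -0.02 to 0.36, limma adjusted p = 0.474) did not pass.

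Uros, uroporphyrinogen III synthase, read 6.36 to 6.61 in liver and 5.75 to 6.12 in hepatocytes. Its difference was 0.071 in liver (95% interval -0.17 to 0.31, limma adjusted p = 0.873) and 0.0078 in hepatocytes (95% interval -0.23 to 0.24, limma adjusted p = 0.991). Urod, the decarboxylase that follows, read 8.76 to 8.96 in liver and 8.32 to 8.46 in hepatocytes. Its differences were 0.069 (95% interval -0.10 to 0.24) and -0.028 (95% interval -0.20 to 0.14), with limma adjusted p = 0.815 and 0.934. For both genes the genotypes overlapped in both tissues.

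Cpox, coproporphyrinogen oxidase, was the enzyme between the first and the last step with the widest liver difference. WT liver read 8.99, 8.85 and 9.03 and JNKΔhepa liver 9.21, 9.25 and 9.33, so that the groups were apart, as they were with the JNKΔhepa arrays higher for 12.9% of all genes. The difference of 0.30 (SE 0.12, 95% interval 0.05 to 0.56), which is 1.23-fold, did not pass over all genes (limma adjusted p = 0.293). In hepatocytes Cpox read 8.48, 8.56 and 8.76 in WT against 8.30, 8.68 and 8.74 in JNKΔhepa. These groups overlapped, at a difference of -0.025 (95% interval -0.28 to 0.23, limma adjusted p = 0.962). The hepatocyte minus the liver difference was -0.33 (95% interval -0.69 to 0.03, limma adjusted p = 0.718).

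Ppox, protoporphyrinogen oxidase, differed by 0.11 in liver (95% interval -0.08 to 0.31, limma adjusted p = 0.673) and by 0.011 in hepatocytes (95% interval -0.18 to 0.20, limma adjusted p = 0.981). Fech, ferrochelatase, read 8.66, 8.97 and 9.03 in WT liver and 8.85, 8.96 and 8.94 in JNKΔhepa liver. It had the smallest liver difference of the 9 genes, 0.032 (95% interval -0.19 to 0.26, limma adjusted p = 0.948), and a hepatocyte difference of 0.028 (95% interval -0.20 to 0.25, limma adjusted p = 0.952). The intervals of Urod, Ppox and Fech leave room for differences of up to 0.31 in size, at Ppox in liver. Those of Alad (to 0.36) and Alas2 (to 0.77) in hepatocytes and of Cpox (to 0.56) and Hmox1 (to 0.88) in liver reach further.

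Hmox1, the degrading enzyme, read 6.71, 6.80 and 7.25 in WT liver and 7.55, 7.20 and 7.34 in JNKΔhepa liver. The highest WT liver lay within the JNKΔhepa range, and the difference of 0.44 (SE 0.20, 95% interval 0.01 to 0.88) did not pass (limma adjusted p = 0.388). In hepatocytes it read 6.04, 5.34 and 5.83 in WT against 6.07, 5.81 and 5.43 in JNKΔhepa, with overlap and a difference of 0.034 (95% interval -0.40 to 0.47, limma adjusted p = 0.973). The hepatocyte minus the liver difference was -0.41 (95% interval -1.02 to 0.20, limma adjusted p = 0.817).

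**Figure D2:**
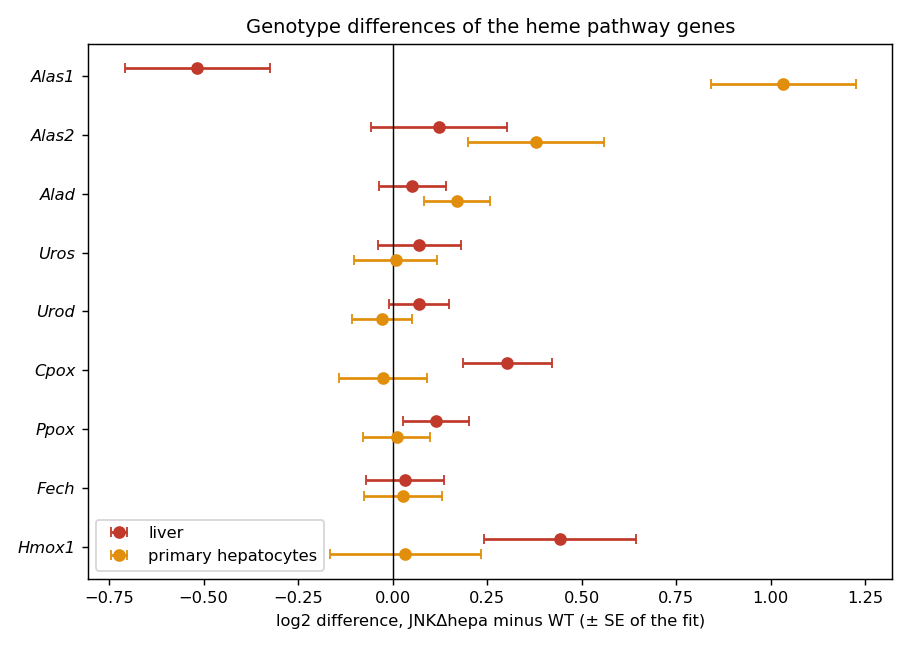
Genotype differences (log2, JNKΔhepa minus WT) of the 9 genes in liver and in primary hepatocytes. Points are fitted differences from 3 arrays against 3. Bars are 1 SE of the fit on each side, from 1 spread per gene shared by the 4 groups. Alas1 is the gene with values on both sides of 0 at more than 1 SE, -0.52 in liver and 1.03 in hepatocytes, and the other 8 liver values lie above 0.

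Markers of other liver cells in the hepatocyte samples are given here beside the Alas1 and Hmox1 values. Of 14 measured Kupffer cell and macrophage markers 13 read lower in JNKΔhepa than in WT hepatocytes, with a median of -0.75, and 1, the complement gene C1qb, passed. Their log2 summed level was 9.690 to 10.5 in WT and 9.06 to 9.692 in JNKΔhepa hepatocytes, which meet at the edge, and 11.8 to 12.3 and 11.9 to 12.1 in the livers. All 9 sinusoidal endothelial markers (median -0.53, 0 passed) and 8 of 9 stellate cell markers (median -0.33, 0 passed) also read lower in JNKΔhepa hepatocytes, while the 8 hepatocyte markers had a median of 0.039. Of 6 measured cholangiocyte markers 5 read higher and 1 lower (median 0.054, 0 passed). At an unadjusted limma p under 0.05 there were 11 of the 14 Kupffer cell and macrophage markers, all 9 endothelial and 4 of 9 stellate markers. There were also 1 of 6 cholangiocyte and 0 of 8 hepatocyte markers, against 12.6% of all genes. Of all genes 0.84% passed. Endothelial sums were 10.27 to 10.65 in WT and 9.85 to 10.34 in JNKΔhepa hepatocytes and overlapped, stellate sums were 8.78 to 9.19 and 8.17 to 8.73 and did not, and cholangiocyte sums were 6.30 to 6.38 and 6.33 to 6.44 and overlapped. In such samples, fewer cells of a type and less RNA per cell cannot be told apart. The part of these cells in the Alas1, Alas2 and Hmox1 differences was not tested.

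A comparison of hepatocytes with liver depends on the scale. The median probe set of the deposited values read from 4.09 to 4.12 on liver arrays but from 3.22 to 3.28 on hepatocyte arrays, as though each tissue had been normalised on its own, so all 12 arrays were put on 1 distribution by quantile normalisation. On that joint scale 28.4% of all genes passed between hepatocytes and liver in WT and 29.9% in JNKΔhepa, and 47.9% and 47.7% of the passing genes were higher in hepatocytes. On the deposited values 0.696% and 0.712% of them were higher, with medians over all genes of -0.58 and -0.60. There all 8 genes other than Alas1 read lower in WT hepatocytes, from -1.18 (Hmox1) to -0.20 (Alas2), and 7 of the 8 passed, as 86.2% of all genes did on that scale.

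On the joint scale Alas1 was lower in hepatocytes than in the liver of each WT mouse (differences of -0.65, -1.01 and -1.65) and higher in those of each JNKΔhepa mouse (0.22, 0.44 and 0.66). The mean differences were -1.10 (SE 0.20) in WT and 0.44 (SE 0.20) in JNKΔhepa. On the deposited values the WT mice gave -1.12, -1.45 and -2.09 and the JNKΔhepa mice -0.21, -0.0075 and 0.21. The order of the genotypes was the same on both scales, but the sign of the JNKΔhepa differences was not. These values restate the difference between the tissues given above and carry no test.

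Hmox1 fell in JNKΔhepa hepatocytes relative to the liver on the joint scale, with differences of -0.82, -0.65 and -1.17 in the 3 mice. The mean difference of -0.88 (SE 0.20), 1.84-fold lower, passed (limma adjusted p = 0.00525). The groups were apart, with hepatocytes lower, as for 23.2% of all genes, and the deposited values gave -1.59. In WT the mice gave 0.01, -0.77 and -0.77, with a mean of -0.51 (SE 0.20) that did not pass (limma adjusted p = 0.0743, and 0.037 without WT hepatocytes 1). Of the 14 Kupffer cell and macrophage markers, 13 passed as lower in hepatocytes than in liver in each genotype (medians of -1.28 and -1.87). Of all genes 28.4% passed in WT and 29.9% in JNKΔhepa in either direction. The part of these macrophages in the Hmox1 difference was not tested.

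Alas2 was higher in JNKΔhepa hepatocytes than in the liver by 0.64 (SE 0.18, limma adjusted p = 0.0189) on the joint scale. This call was lost without JNKΔhepa liver 2 (adjusted p = 0.0848) or JNKΔhepa hepatocytes 1 (adjusted p = 0.0652), and on the deposited values, where the difference was 0.051 (adjusted p = 0.791). In WT the Alas2 difference was 0.39 on the joint scale (adjusted p = 0.127) and -0.20 on the deposited values. The other 6 genes, Alad, Uros, Urod, Cpox, Ppox and Fech, did not pass between hepatocytes and liver in either genotype on the joint scale, with differences from -0.17 (Ppox in JNKΔhepa) to 0.19 (Cpox in WT). At an unadjusted p under 0.05 these 6 gave 0 in both genotypes, against 39.8% of all genes in WT and 41.1% in JNKΔhepa. Cpox had the opposite order to Alas1: the WT mice gave 0.034, 0.28 and 0.27 and the JNKΔhepa mice -0.38, -0.0078 and -0.060. The test of that order is the difference between the tissues given above for Cpox, which did not pass.

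**Figure D3:**
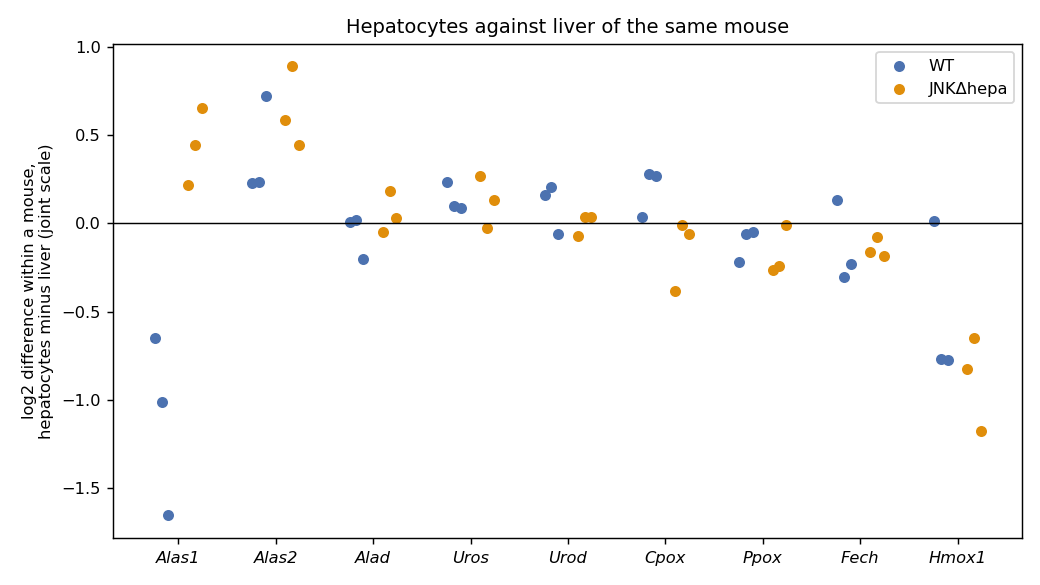
Hepatocytes minus liver (log2, joint quantile scale) of the 9 genes in each mouse, with a point per mouse and the 3 WT and 3 JNKΔhepa mice in separate colours. Alas1 is the gene whose WT mice all lie below 0 (-0.65 to -1.65) and JNKΔhepa mice all above (0.22 to 0.66); the deposited scale would move every point down.

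The steps around the pathway were read from 5 further lists, chosen with earlier results of these data known. Of the other enzymes of heme handling 8 of 12 listed were measured, and 0 passed by limma in liver, in hepatocytes or between them, where 1, 1 and 0 had an unadjusted p under 0.05 (12.5%, 12.6% and 7.22% of all genes). All 8 differences in liver were above 0, with a median of 0.21 against 0.016 over all genes. The 8 genes include Cox10, which starts the conversion of heme b to heme a (0.27, limma adjusted p = 0.214). They also include Clpx, part of the mitochondrial protease that degrades ALAS1 (0.49, adjusted p = 0.556). Blvra and Blvrb, the biliverdin reductases that act after heme oxygenase, differed by 0.23 and 0.21 (adjusted p = 0.496 and 0.692). In hepatocytes 5 of the 8 were above 0 with a median of 0.12, and Lonp1, another mitochondrial protease, had the smallest p (0.25, adjusted p = 0.222).

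Of the carriers of heme, porphyrins and mitochondrial iron 13 of 14 were measured and 0 passed by genotype with limma (3 in liver and 1 in hepatocytes at an unadjusted p under 0.05, as did 12.5% and 12.6% of all genes). Slc46a1, a folate and heme importer, differed by 0.39 in liver (limma adjusted p = 0.133, and 0.0413 with array weights). Slc25a37 (mitoferrin-1), which brings iron to ferrochelatase, read 7.35, 7.47 and 7.69 in WT liver and 7.15, 7.17 and 7.06 in JNKΔhepa liver, against 5.95, 6.34 and 6.35 in WT and 6.24, 6.41 and 6.46 in JNKΔhepa hepatocytes. It was lower in JNKΔhepa liver without overlap, as 7.57% of all genes were, while its hepatocyte arrays overlapped. The difference between the tissues, 0.53, had the sign of Alas1 and did not pass (limma adjusted p = 0.558).

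Of 17 genes of iron handling and heme scavenging, 1 passed by genotype, in hepatocytes, where 0.84% of all genes did. An unadjusted limma p under 0.05 was found for 5 in liver and 3 in hepatocytes, against 12.5% and 12.6% of all genes. Slc39a14, the importer ZIP14 for iron not bound to transferrin, was higher in JNKΔhepa hepatocytes by 0.46 (SE 0.079, limma adjusted p = 0.0154). The call was lost without WT hepatocytes 1 (0.0733), JNKΔhepa hepatocytes 2 (0.0656) or JNKΔhepa hepatocytes 3 (0.0705), and in a fit of hepatocytes alone (0.104). Slc40a1, the iron exporter ferroportin, differed by 0.45 in liver (limma adjusted p = 0.103, and 0.0493 with array weights). Tfrc, the transferrin receptor, read 6.94, 6.80 and 6.33 in WT liver and 5.99, 6.07 and 6.07 in JNKΔhepa liver. It was lower in JNKΔhepa liver without overlap, as 7.57% of all genes were. The liver difference of -0.65 did not pass (limma adjusted p = 0.167). In hepatocytes Tfrc read 5.48, 6.36 and 5.70 in WT against 6.26, 6.19 and 6.05 in JNKΔhepa. The difference between the tissues, 0.97, did not pass (limma adjusted p = 0.448).

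Of 24 listed regulators of Alas1 and Hmox1, 21 were measured. Of these 1 passed as lower in JNKΔhepa liver and 2 in JNKΔhepa hepatocytes, where 0.925% and 0.84% of all genes passed in either direction. At an unadjusted limma p under 0.05 there were 6 in liver and 8 in hepatocytes, against 12.5% and 12.6% of all genes. Ppargc1a encodes PGC-1α, the coactivator through which fasting induces Alas1. It read 7.46, 7.15 and 7.57 in WT hepatocytes and 6.45, 6.23 and 6.47 in JNKΔhepa hepatocytes. The difference of -1.01 (SE 0.16) passed (limma adjusted p = 0.00919), and its direction is opposite to that of Alas1 in the same samples. The call was lost without WT hepatocytes 3 (0.0518) or JNKΔhepa hepatocytes 2 (0.0564). In liver Ppargc1a read 7.35, 7.41 and 7.94 in WT against 7.41, 7.67 and 7.66 in JNKΔhepa, with overlap, and WT liver 3, the array with the most Alas1, was again the highest. The difference between the tissues, -1.02, did not pass (limma adjusted p = 0.358). The part of Ppargc1a in the Alas1 values was not tested.

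Jun, the AP-1 subunit that JNK phosphorylates, was lower in JNKΔhepa liver (difference -0.74, limma adjusted p = 0.0264) and in JNKΔhepa hepatocytes (difference -0.84, limma adjusted p = 0.0135). Leaving out WT liver 2 (0.103) or any of the 3 JNKΔhepa livers (0.0944, 0.0931 and 0.0686) ended the liver call. Leaving out WT hepatocytes 1 (0.0704) or 3 (0.0614) or JNKΔhepa hepatocytes 2 (0.0706) or 3 (0.061) ended the hepatocyte call, as did a fit of hepatocytes alone (0.0622). Jun was also higher in hepatocytes than in liver by 2.72 in both genotypes on the joint scale.

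Of 22 listed heme proteins of the liver, the users of the product, 20 were measured. In liver 1 passed, against 0.925% of all genes, and 3 had an unadjusted limma p under 0.05, against 12.5%. The passing gene was Cyp8b1, the sterol 12-alpha-hydroxylase that sets the cholic acid share of bile acids. It was higher by 0.63 in JNKΔhepa liver (limma adjusted p = 0.0403). The call was lost without any single one of the 6 liver arrays, and in a fit of liver alone (0.123). None passed in hepatocytes, where Sdhd, a heme-binding subunit of succinate dehydrogenase, had the smallest p (-0.34, limma adjusted p = 0.17) and 4 had an unadjusted p under 0.05, as did 12.6% of all genes. The widest value, that of the cytochrome P450 Cyp2b9, is named after it was seen: -1.78 in liver (limma adjusted p = 0.534) and -2.62 in hepatocytes (limma adjusted p = 0.311).

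**Figure D4:**
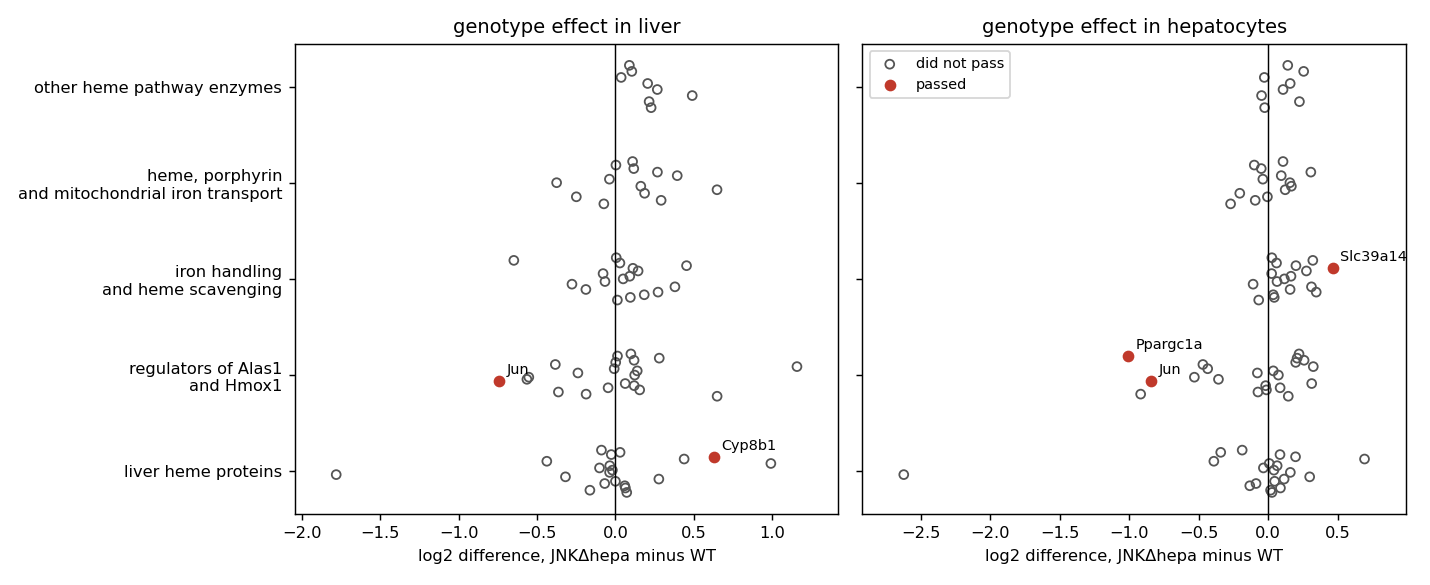
Genotype differences (log2, JNKΔhepa minus WT) of the measured genes of the 5 further lists, in liver and in hepatocytes, with a point per gene and filled, named points for those that passed. The medians in liver lie from -0.023 to 0.21; Ppargc1a (-1.01) and Jun (-0.84) stand to the left among the regulators in hepatocytes, and the point farthest left, Cyp2b9 (-2.62), did not pass.

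Between the tissues, where 28.4% of all genes passed in WT and 29.9% in JNKΔhepa on the joint scale, 1 and 3 of the 13 carriers passed, and 3 of the 17 iron genes in each genotype. Slc40a1, abundant in macrophages that recycle iron, was lower in hepatocytes (differences of -0.80 in WT and -1.08 in JNKΔhepa). Slc25a37 was lower in WT hepatocytes (-0.63). Tfrc was higher in JNKΔhepa hepatocytes (0.85, limma adjusted p = 0.00669), a call that was lost on the deposited values (0.12, adjusted p = 0.563). The deposited values were -1.34 and -1.59 for Slc40a1 and -1.29 for Slc25a37, and all 3 passed there too. Of the 21 regulators 8 passed in WT and 9 in JNKΔhepa, led by Jun and by Atf3, a stress-induced factor that was higher in hepatocytes by 2.47 and 1.75 (1.69 and 0.96 on the deposited values). Atf3 read below the array median in WT livers 1 and 2 and JNKΔhepa livers 2 and 3, so the size of its change rests on dim liver readings. Of the 20 heme proteins 3 passed in each genotype, against the same 28.4% and 29.9% of all genes, with Cyp7a1, the rate-limiting enzyme of bile acid synthesis, lower in both (-1.38 and -1.20). Of the 8 other heme enzymes 0 passed by limma, while 2 in WT and 1 in JNKΔhepa had an unadjusted p under 0.05 (39.8% and 41.1% of all genes).

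The genes whose values lay closest to those of Alas1 were sought by the root mean square difference over the 12 arrays, after each gene had been centred on its mean in liver and in hepatocytes separately. Among 9297 genes above the array median on all arrays, the 5 closest were Gpcpd1 (0.25), B3galt1 (0.28), Phf8 (0.30), Carmil1 (0.30) and Slc41a1 (0.30), against a median of 0.49 over the genes compared. Gpcpd1, a glycerophosphocholine phosphodiesterase, had its highest liver reading in WT liver 3, at 0.59 above the liver mean where Alas1 stood at 0.76. In hepatocytes its WT arrays stood at -0.51, -0.46 and -0.30 and its JNKΔhepa arrays at 0.62, 0.38 and 0.27. B3galt1, a galactosyltransferase, stood at -0.80, -0.21 and -0.79 in WT and at 0.59 to 0.61 in JNKΔhepa hepatocytes, but at 0.13, 0.02 and 0.18 in WT liver. In hepatocytes all 5 stood below their mean on the 3 WT arrays and above it on the 3 JNKΔhepa arrays, as Alas1 did. This likeness was the ground of their choice and is no separate result. None of the other 8 pathway genes was among the 5, which is likely for any 8 of 9297 genes.

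**Figure D5:**
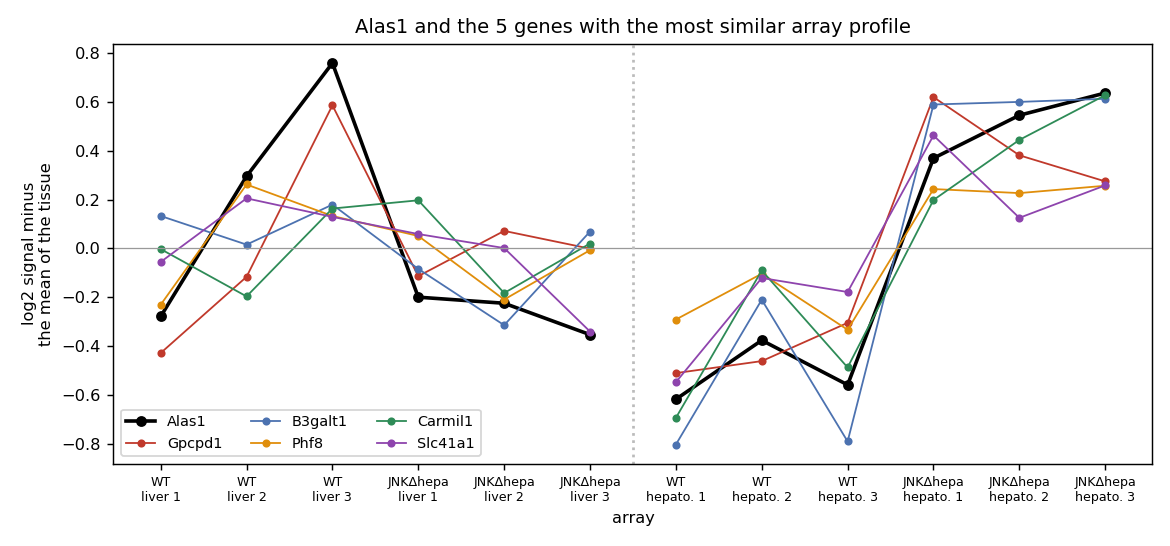
Alas1 and the 5 genes with the closest values, as log2 value minus the gene's mean within the tissue, over the 12 arrays in 4 groups of 3. Lines only join the points of a gene, since replicates have no order; in hepatocytes Alas1 stands at -0.62 to -0.38 in WT and 0.37 to 0.64 in JNKΔhepa.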

How the data were processed

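RNA of 12 samples was hybridised to 12 one-colour arrays. The deposited values are log2 expression per probe set, made by the authors with RMA (background correction, quantile normalisation and summary), per the submitters' processing notes without a version. The sources used here name neither software nor build. Of 35556 probe sets, 21218 had 1 symbol in the platform annotation, 1881 had several and 12457 stay unnamed. Each gene was read from its brightest probe set over all arrays. Symbols were set against RefSeq (GRCm38.p6). Group means were fitted with limma 3.58.1 (R 4.3.3, 8 residual and 4.76 prior degrees of freedom), with two-sided tests on all genes. Tissues were compared after joint quantile normalisation. The 9 genes, the lists and the tests were chosen with earlier results of these data known.

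Genes other than the 9 were named where they had the smallest p of a list in a contrast, or the largest changes among those passing; the clock genes, Clpx, Blvrb, C1qb and Cyp2b9 were added after their values were seen. Samples with the same mouse number come from the same animal, per the labels. Deviations from the group means correlated at -0.013 to 0.098 between a mouse's liver and hepatocytes. The fit with the mouse as a block changed the call of Flvcr1 alone among the named genes. The replicates are separate animals, and their number limits the precision. Alternatives were array weights, a filter on dim genes, an intensity trend, a tissue fitted alone, joint or deposited scaling, the mouse as a block and leaving out each array. Python 3.11.15 with pandas 2.3.3, numpy 2.4.6 and matplotlib 3.10.9 was used for the rest.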

Additional observations from a re-analysis of the deposited data

Results flagged for a closer look

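Among the 9 pathway genes and the genes named from the 5 further lists in the genotype comparisons, there were 3 for which every JNKΔhepa liver read below the WT liver mean and every JNKΔhepa hepatocyte array read above the WT hepatocyte mean. For Alas1 the hepatocyte difference exceeded the liver difference by 1.55; this difference was not tested, because the gene had been chosen for it. For Tfrc the value was 0.97 (limma adjusted p = 0.448), and for Slc25a37 it was 0.53 (limma adjusted p = 0.558), so that neither passed. Tfrc and Slc25a37 had been named because they had the smallest p of their lists for the difference between the tissues. The count therefore follows from how the genes were picked, and the share of all genes with this pattern was not counted. The genes closest to Alas1, picked for their likeness to it, were left out of this count. The causes were not tested.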

How the results depend on the processing

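The mouse as a random replicate block gave 169 calls in liver, 162 in hepatocytes and 2 between them, against 174, 158 and 2 without the block, and it changed no call of the 9 genes; Flvcr1 (hepatocytes minus liver in JNKΔhepa, -0.35, limma adjusted p = 0.0383) had 0.0862 with the mouse as a fixed block. Array weights gave 408 calls in liver and 4 between the tissues, hepatocytes alone gave 77 calls, the deposited scale gave 16231 and 16282 calls between the tissues in WT and JNKΔhepa, and the filter on dim genes 3358 and 3468. Leaving out each array in turn gave 80 to 208 calls in liver, 61 to 387 in hepatocytes, 1 to 7 between them, and 4113 to 4911 and 4227 to 5040 between the tissues. Directions turned on the deposited scale for Alas2 (-0.20), Uros (-0.55), Urod (-0.46), Cpox (-0.36) and Ftl1 (-0.11) in WT, and for Alad (-0.37), Uros (-0.61), Ftl1 (-0.032), Abcg2 (-0.073) and Sdhc (-0.17) in JNKΔhepa. With array weights they turned for Uros (-0.037) and Cpox (0.028) in hepatocytes, Urod between tissues in JNKΔhepa (0.0063) and Fech between the genotype differences (0.020), and with joint scaling for Uros in hepatocytes (-0.012). Small genotype values crossed 0 when an array was left out: in liver Alas2 (-0.083 to 0.30) and Fech (-0.081 to 0.10), in hepatocytes Uros (-0.084 to 0.091), Urod (-0.064 to 0.0052), Cpox (-0.11 to 0.11), Ppox (-0.043 to 0.061), Fech (-0.025 to 0.061) and Hmox1 (-0.16 to 0.20), between the genotype differences Uros (-0.155 to 0.020) and Fech (-0.076 to 0.11), and between tissues Urod in JNKΔhepa (-0.035 to 0.025). With each array left out in turn, Alas1 differed by -0.79 to -0.27 in liver and by 0.97 to 1.11 in hepatocytes. The gap between them was 1.30 to 1.82. Alas1 was chosen on these values, so the ranges are a description. Its values with array weights, the filter on dim genes, the intensity trend or a tissue fitted alone are not given here. The cause was not tested for these changes.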
